A study of Homo sapiens and Mus musculus with 34 samples.

Results

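Transcripts of 9 cell surface receptors of neuroblastoma were followed in 4 human neuroblastoma lines before and 1 h after CYC065, an inhibitor of cyclin-dependent kinases. The genes were ALK, RET, NTRK2, NTRK3, NGFR, KIT, EGFR, PDGFRA and PDGFRB, chosen by name from 32803 genes that could be given a row of the human transcriptome array. All 9 genes had a row, and 4 of them (RET, NTRK3, EGFR and PDGFRB) had 2 rows, of which the brighter was used. The products of 8 of the 9 genes are receptor tyrosine kinases; NGFR encodes the neurotrophin receptor p75, which has no kinase domain.

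The 24 human arrays comprised 3 untreated and 3 CYC065-treated arrays for every line: Kelly and SKNAS, and BE2C and SHSY5Y. The labels call the controls untreated, whereas the design text calls them treated with the equivalent of DMSO. Every line received 1 µM CYC065 for 1 h by its sample labels, but the treatment protocol gives 5 µM for SKNAS. All lines grew in DMEM with fetal calf serum, which itself carries growth factors. Kelly and BE2C are known as lines with an amplified MYCN gene, and SKNAS and SHSY5Y as lines without it; Kelly and SHSY5Y are known to carry an activating mutation of ALK. With 1 line of each kind per pair, a difference between lines is one between those cultures and not between classes of tumor. The design text calls the replicates biological.

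Receptor tyrosine kinases bind a ligand outside the cell, pair up and phosphorylate each other, and the phosphorylated tails recruit adaptors that switch on the RAS and ERK and the PI3K and AKT pathways. Ubiquitin ligases and feedback inhibitors then take the receptors out of service. In cells of the sympathetic lineage, ALK, RET and the neurotrophin receptors act in growth, survival and differentiation, and ALK is a known oncogene of neuroblastoma. The PDGF receptors, KIT and EGFR are better known from mesenchymal, blood and pigment, and epithelial cells.

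Among the receptors, PDGFRA was called lower after CYC065 in Kelly and SHSY5Y, and KIT in SHSY5Y only. Each of these calls was lost under some of the alternatives given below. ALK and EGFR were among the receptors that differed most between untreated lines. The promoter windows of PDGFRA, KIT, ALK and EGFR are shown for that reason. Each runs from 250 bases before to 50 bases after a start site in RefSeq (GRCh38.p14). Capitals mark the GC box GGGCGG on either strand, the binding letters of SP1-type factors. The array value of a gene does not tell which start site was used.

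PDGFRA, first start site, chr4:54229043-54229342, plus strand: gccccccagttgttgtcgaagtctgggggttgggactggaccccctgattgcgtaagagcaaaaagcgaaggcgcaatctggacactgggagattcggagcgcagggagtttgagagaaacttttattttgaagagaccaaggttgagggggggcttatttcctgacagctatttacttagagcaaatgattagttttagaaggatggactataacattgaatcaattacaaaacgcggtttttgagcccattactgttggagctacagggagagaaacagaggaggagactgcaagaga
PDGFRA, second start site, chr4:54233710-54234009, plus strand: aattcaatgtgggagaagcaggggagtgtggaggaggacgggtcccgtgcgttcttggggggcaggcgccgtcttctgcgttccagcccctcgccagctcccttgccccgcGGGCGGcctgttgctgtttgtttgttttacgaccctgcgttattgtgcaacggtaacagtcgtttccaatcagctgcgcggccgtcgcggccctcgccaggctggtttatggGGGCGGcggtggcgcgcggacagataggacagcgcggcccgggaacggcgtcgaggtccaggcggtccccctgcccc
KIT, chr4:54657707-54658006, plus strand: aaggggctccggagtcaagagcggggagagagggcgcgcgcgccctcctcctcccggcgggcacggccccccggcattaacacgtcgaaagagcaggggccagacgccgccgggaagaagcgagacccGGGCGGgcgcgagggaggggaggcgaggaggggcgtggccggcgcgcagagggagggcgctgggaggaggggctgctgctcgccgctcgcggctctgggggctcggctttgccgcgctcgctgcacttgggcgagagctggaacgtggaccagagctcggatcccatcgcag
ALK, first start site, chr2:29921537-29921836, minus strand: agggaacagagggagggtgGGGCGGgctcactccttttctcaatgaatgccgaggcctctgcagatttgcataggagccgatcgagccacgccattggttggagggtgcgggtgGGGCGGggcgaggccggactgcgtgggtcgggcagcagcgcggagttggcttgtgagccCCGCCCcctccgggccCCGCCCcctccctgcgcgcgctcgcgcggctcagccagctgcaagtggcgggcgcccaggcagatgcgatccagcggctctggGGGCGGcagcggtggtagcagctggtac
EGFR, first start site, chr7:55018767-55019066, plus strand: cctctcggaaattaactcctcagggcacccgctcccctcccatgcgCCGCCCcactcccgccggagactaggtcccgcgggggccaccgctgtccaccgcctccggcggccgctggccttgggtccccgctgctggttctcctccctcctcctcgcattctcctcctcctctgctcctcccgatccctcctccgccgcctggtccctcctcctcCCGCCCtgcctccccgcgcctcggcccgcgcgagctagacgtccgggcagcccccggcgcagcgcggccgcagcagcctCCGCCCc

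The search also covered the E-box CACGTG, the GATA motif GATAA and the TATA box TATAAA, on both strands, and none of the 3 occurs in the 5 windows printed. The second start sites of ALK and EGFR, not printed, differ from the first: the ALK window there holds 1 E-box and the EGFR window 2 TATA boxes, and both hold 0 GC boxes. The GC box occurs 5 times in the printed ALK window, 3 times in that of EGFR, 2 times at the second start site of PDGFRA, 1 time in that of KIT and not at the first start site of PDGFRA. Of 35116 RefSeq windows of the same length, 45% hold a GC box, 7.3% an E-box, 22.7% a GATA motif and 11.5% a TATA box. RefSeq windows were found for 8 of the 9 genes, 15 windows in all. A match describes letters only.

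Values below are log2 levels as the authors deposited them, and a level is compared only within the same row, since probes differ in brightness. Arrays of one group correlated at r of 0.994 to 0.999 across genes, and the number of arrays limits the precision. The median of the 23 background rows lay between 3.29 and 4.04 on the 24 arrays. Background rows themselves ran from a mean of 2.01 to one of 12.22 with the GC number in their name, so a comparison with their median is only a rough guide to detection. Kelly and SKNAS come from an earlier deposit than BE2C and SHSY5Y, so levels were tested only within each of these pairs.

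The lines were first checked against marker genes. Of 10 adrenergic markers of neuroblastoma, all 10 lay above the 75th percentile of all genes in untreated Kelly, BE2C and SHSY5Y, and 6 did so in untreated SKNAS, where DBH was at 5.97 and CHGA at 6.60. Of 8 mesenchymal markers, 5 lay above it in SKNAS and 2 in each other line. The arrays labelled SKNAS also carried PTPRC, a blood cell gene, at 8.65 (3.10 or less in the other untreated lines), CD68 at 9.70, KRT8 at 9.42 and KRT18 at 9.85. The mean level of the 5 blood cell markers was 6.48 to 6.52 on the untreated SKNAS arrays and 4.65 to 5.04 on those of the other lines; for the 5 epithelial markers it was 6.55 to 6.65 against 5.06 to 5.52. These levels leave the identity of the arrays labelled SKNAS in doubt, and every difference between Kelly and SKNAS given here rests on that label. The part of these genes in any such difference was not tested.

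**Figure D1:**
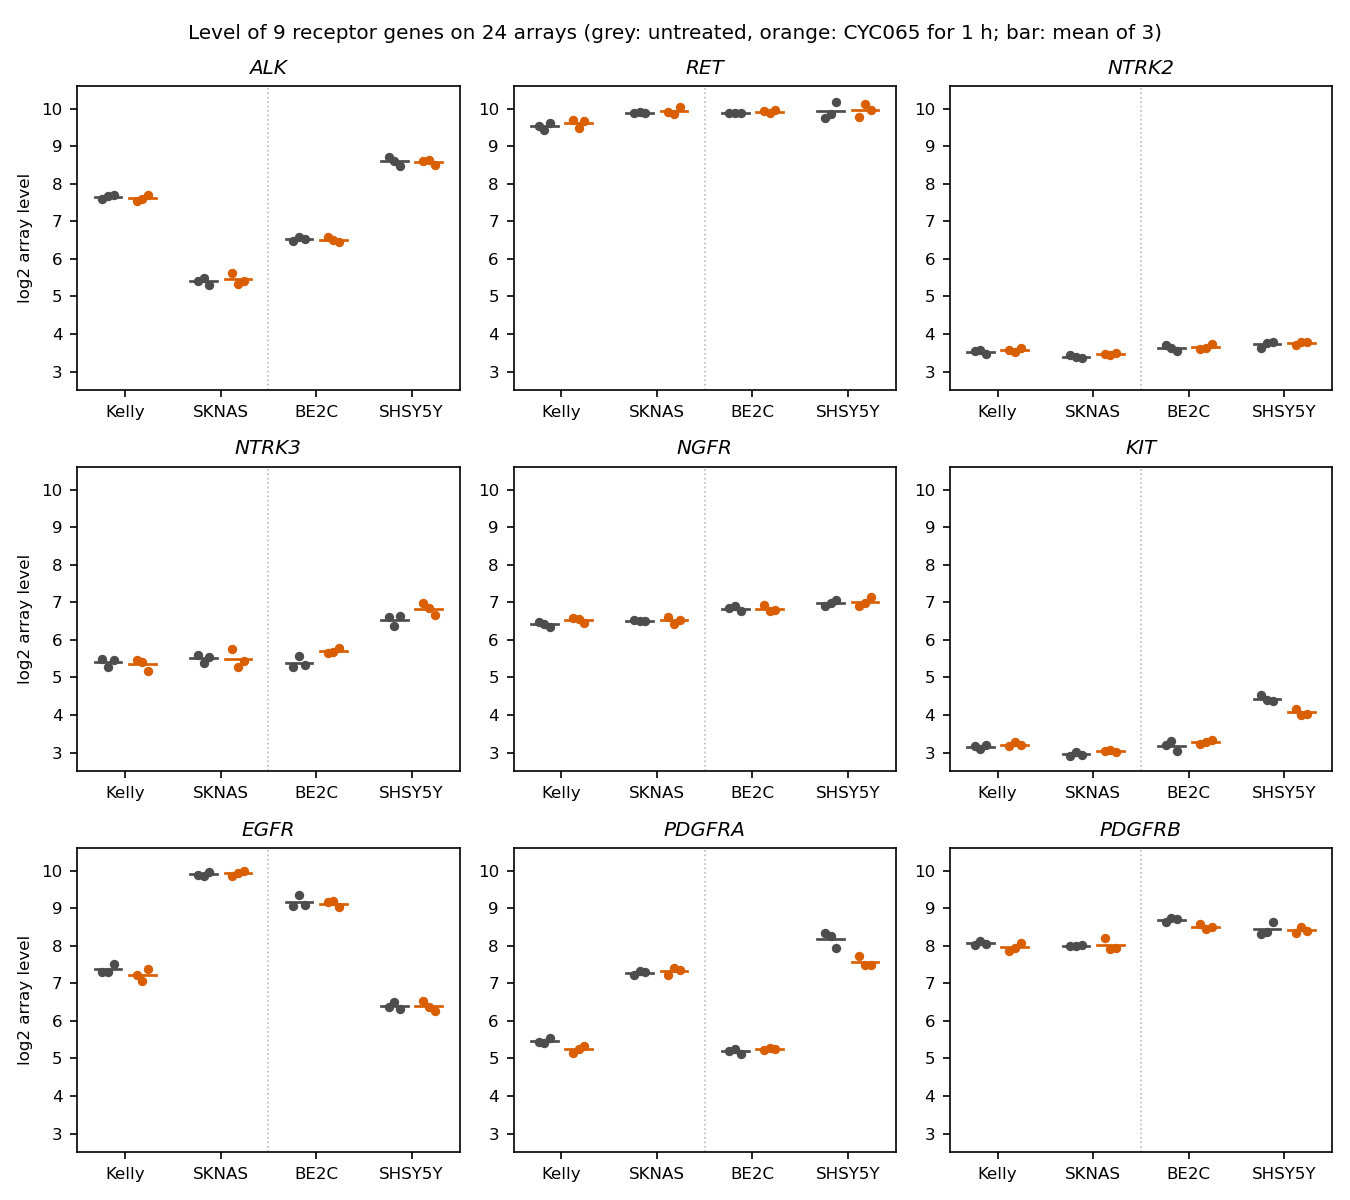
Log2 array level of each receptor on all 24 arrays, with lines on the horizontal axis and the 2 deposits divided by a dotted line; grey points are untreated arrays, orange points CYC065-treated arrays, and bars are means of 3. ALK, EGFR and PDGFRA move by line over several log2 units, while the treated and untreated points separate downward for PDGFRA in SHSY5Y and Kelly and for KIT in SHSY5Y.

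The untreated lines differed in the levels of some receptors. Between Kelly and SKNAS, 2 of the 9 receptors were higher in Kelly (18.2% of all 32803 genes were) and 3 were lower (18.7% of all genes), by limma with a Benjamini-Hochberg adjusted p under 0.05. Between BE2C and SHSY5Y, 2 were higher in BE2C (16.3% of all genes) and 4 were lower (14.6% of all genes).

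ALK, the receptor of the ALKAL ligands, was at 7.58, 7.68 and 7.71 on the untreated Kelly arrays and at 5.40, 5.50 and 5.30 on those of SKNAS. In BE2C it was at 6.48, 6.58 and 6.52, and in SHSY5Y at 8.72, 8.61 and 8.48. The groups did not overlap within either pair. Kelly exceeded SKNAS 4.78-fold in ALK (log2 difference 2.26 ± 0.07, SE, n = 3 arrays per line, limma adjusted p = 1.07e-11). BE2C lay 4.22-fold below SHSY5Y (log2 difference -2.08 ± 0.07, limma adjusted p = 1.06e-10). Kelly and SHSY5Y are the 2 lines known for a mutated ALK, and their ALK levels were the higher of each pair. A link between mutation and level was not tested.

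EGFR, the receptor of EGF and related ligands, ran the other way in both pairs. Its level was 7.30, 7.30 and 7.51 in untreated Kelly and 9.88, 9.86 and 9.95 in untreated SKNAS. It was 9.06, 9.34 and 9.09 in BE2C and 6.38, 6.49 and 6.32 in SHSY5Y. EGFR was 5.76-fold lower in Kelly than in SKNAS (log2 difference -2.52 ± 0.08, limma adjusted p = 1.42e-11) and 6.81-fold higher in BE2C than in SHSY5Y (log2 difference 2.77 ± 0.08, limma adjusted p = 2.43e-11). The dimmer EGFR row gave log2 differences of -2.30 and 1.97 for the same comparisons.

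PDGFRA, a receptor of PDGF that marks many mesenchymal cells, was the higher in SHSY5Y and in SKNAS within the 2 pairs. The untreated values were 8.33, 8.25 and 7.94 in SHSY5Y and 5.19, 5.26 and 5.12 in BE2C. They were 7.21, 7.34 and 7.31 in SKNAS and 5.43, 5.42 and 5.54 in Kelly. PDGFRA was 7.92-fold lower in BE2C than in SHSY5Y (log2 difference -2.99 ± 0.09, limma adjusted p = 2.23e-11) and 3.54-fold lower in Kelly than in SKNAS (log2 difference -1.82 ± 0.09, limma adjusted p = 8.39e-10). Its relative PDGFRB, which lies on chromosome 5, had untreated means of 8.07 ± 0.06 in Kelly, 8.01 ± 0.01 in SKNAS, 8.69 ± 0.05 in BE2C and 8.44 ± 0.16 in SHSY5Y (SD, n = 3). On this brighter row only the difference between BE2C and SHSY5Y passed the test, at a log2 difference of 0.26 ± 0.07 (limma adjusted p = 0.0160), and it did not pass with the 6 arrays of those lines alone (adjusted p = 0.0687) or after quantile normalisation, where it was 0.12 (adjusted p = 0.374). Leaving out 1 of 3 arrays (untreated BE2C replicate 2, untreated SHSY5Y replicate 1 or 2) also ended this call, with adjusted p of 0.0603, 0.0676 and 0.0648. On the dimmer row both pairs passed, with log2 differences of 0.43 ± 0.05 (adjusted p = 3.02e-05) for BE2C minus SHSY5Y and 0.15 ± 0.05 (0.0486) for Kelly minus SKNAS.

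KIT, the receptor of stem cell factor, was at 4.53, 4.41 and 4.38 in untreated SHSY5Y, above the background median on 3 of 3 arrays. In untreated Kelly, SKNAS and BE2C it was at 2.91 to 3.30 and above the background median on 0 of 3 arrays of each line. Taken against the background level of the BE2C arrays, KIT was at least 1.68-fold higher in SHSY5Y than in BE2C, with measured means of 4.44 and 3.18 (limma adjusted p = 1.04e-08). The difference between Kelly and SKNAS (log2 difference 0.20 ± 0.07, limma adjusted p = 0.0419) lay below background in both lines and passed narrowly; it did not pass after median centring (adjusted p = 0.0551) or when any 1 of 6 arrays was left out, at adjusted p of 0.0521 to 0.131. These were untreated Kelly replicates 1 and 3, SKNAS replicates 1 and 3, BE2C replicate 1 and SHSY5Y replicate 2.

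RET, the signalling receptor of the GDNF family, was bright in every line. Its brighter row was at 9.44 to 9.62 in untreated Kelly, 9.88 to 9.91 in SKNAS, 9.88 to 9.89 in BE2C and 9.75 to 10.17 in SHSY5Y. RET was lower in Kelly than in SKNAS by both rows, with log2 differences of -0.36 ± 0.09 (limma adjusted p = 0.00419) and, on the dimmer row, -0.58 ± 0.07. Between BE2C and SHSY5Y the rows disagreed: the brighter row gave a log2 difference of -0.04 ± 0.09 (limma adjusted p = 0.808) and the dimmer row 0.69 ± 0.07 (limma adjusted p = 3.72e-06). On the dimmer row the values were 8.10, 8.30 and 8.26 in BE2C and 7.55, 7.43 and 7.60 in SHSY5Y, without overlap. The direction for RET between these lines is therefore uncertain.

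Among the neurotrophin receptors NTRK3 differed in 1 of the pairs. NTRK3, the receptor of NT-3, was at 6.38 to 6.63 in untreated SHSY5Y and at 5.28 to 5.56 in BE2C, a 2.21-fold difference (log2 difference -1.15 ± 0.10, BE2C minus SHSY5Y, limma adjusted p = 4.76e-07); its dimmer row gave -0.52 ± 0.06. Kelly and SKNAS did not differ in NTRK3 beyond their spread, at 5.29 to 5.50 and 5.39 to 5.61. NGFR was at 6.34 to 7.07 on all untreated arrays and passed the test in neither pair (limma adjusted p = 0.278 and 0.0964). NTRK2, the receptor of BDNF, was at 3.36 to 3.80 on all untreated arrays, near the background median, and passed the test in neither pair (limma adjusted p = 0.143 and 0.301).

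**Figure D2:**
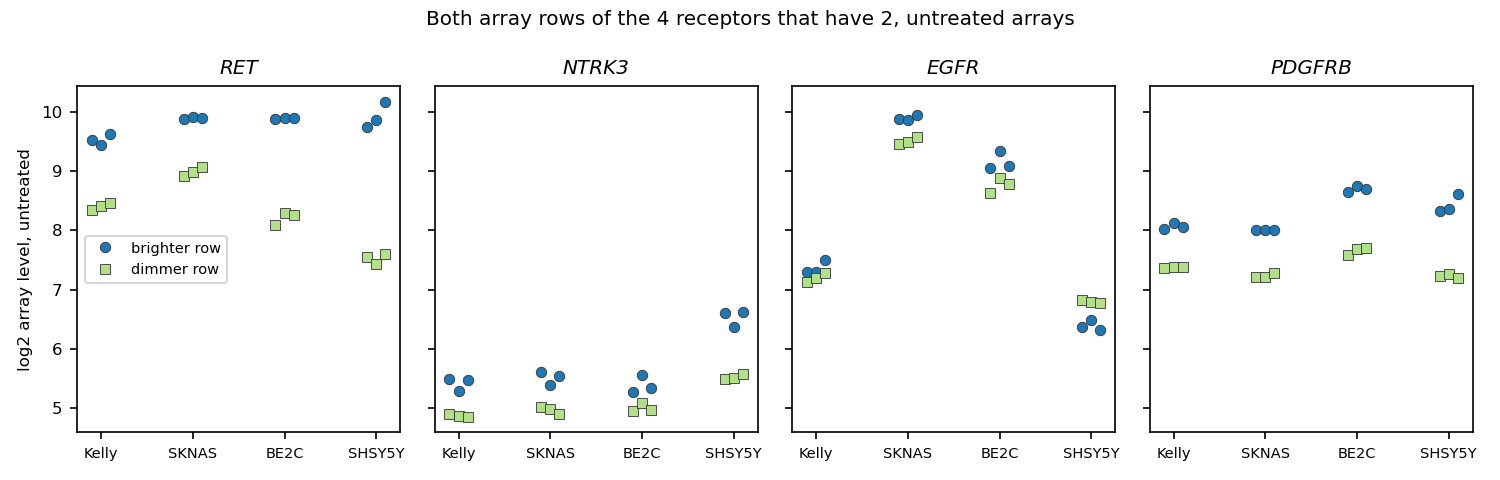
Log2 array level on the untreated arrays of each line for RET, NTRK3, EGFR and PDGFRB, with circles for the brighter and squares for the dimmer row of the same gene. Both rows of EGFR fall from SKNAS to Kelly and from BE2C to SHSY5Y, whereas the brighter RET row is level between BE2C and SHSY5Y and the dimmer row is lower in SHSY5Y.

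The treated and untreated arrays of each line were compared to ask which receptor transcripts changed within 1 h of CYC065. In Kelly 1 of the 9 receptors was called lower (11.0% of all genes were) and 0 higher (8.87%). In SKNAS 0 were lower (4.59% of all genes) and 0 higher (1.33%). In BE2C 0 were lower (3.06%) and 0 higher (0.674%). In SHSY5Y 2 were lower (3.98%) and 0 higher (0.399%). Among the 33 line and receptor combinations not called, 3 had an unadjusted limma p under 0.05. The matching share over all genes was not counted, so nothing is read from that number. The median log2 change of the 9 receptors was -0.05 in Kelly, 0.04 in SKNAS, 0.03 in BE2C and -0.01 in SHSY5Y, against 0.07, 0.03, 0.01 and 0.02 over all genes.

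PDGFRA in SHSY5Y was at 8.33, 8.25 and 7.94 on the untreated arrays and at 7.72, 7.48 and 7.49 on the treated ones. The groups did not overlap, and each of the treated arrays lay below the lowest untreated one. The transcript fell 1.53-fold (log2 change -0.61 ± 0.12, SE, n = 3 arrays per group, limma adjusted p = 0.0180). The call was lost, with the change still negative, after median centring of the arrays (-0.63, adjusted p = 0.0601). It was also lost when untreated array 1, untreated array 2, treated array 5 or treated array 6 was left out (-0.53 to -0.57, adjusted p = 0.0752 to 0.0784). The authors' deposited table gives an adjusted p of 0.0494 from the same arrays. Its change equals the one here because rows were named by matching that value, so it adds no separate evidence.

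PDGFRA in Kelly, where the gene is much dimmer, was at 5.43, 5.42 and 5.54 before and 5.15, 5.25 and 5.33 after CYC065, again without overlap. The change was -0.22 ± 0.06 on the log2 scale, 1.16-fold, at a limma adjusted p of 0.0456. It did not pass with a spread shared over the 24 arrays (adjusted p = 0.0828), with all rows tested (0.0747) or when any 1 of 5 arrays was left out (untreated replicates 1 to 3, treated replicates 4 and 5; 0.0845 to 0.128). Background medians in Kelly rose from between 3.29 and 3.31 to between 3.38 and 3.49 with treatment; their part in the result was not tested. In SKNAS the PDGFRA values were 7.21, 7.34 and 7.31 before and 7.21, 7.41 and 7.36 after, and the log2 change was 0.04 with a 95% interval from -0.12 to 0.21. In BE2C they were 5.19, 5.26 and 5.12 before and 5.23, 5.28 and 5.24 after, and the interval ran from -0.07 to 0.19.

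KIT in SHSY5Y was at 4.53, 4.41 and 4.38 before and at 4.17, 4.00 and 4.04 after CYC065, without overlap, and 2 of 3 treated arrays stayed above the background median. It fell 1.29-fold (log2 change -0.37 ± 0.08, limma adjusted p = 0.0329). That call was lost after quantile normalisation (adjusted p = 0.0687), after median centring (0.0826), with all rows tested (0.0778) and when any 1 of those same 4 arrays was left out (0.108 to 0.167), and the authors' deposited table gives KIT an adjusted p of 0.0852. In the other lines KIT stayed below the background median, so no change there could be read.

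The response itself was then compared between the lines. PDGFRA differed in its response between the 4 lines (limma F test, adjusted p = 0.00263); 2 of the 9 receptors passed this test, where 5.14% of all genes did. The second was KIT (adjusted p = 0.00343), but with KIT below the background median in 3 of the lines a fall could not have shown there, so this is not read as a difference in response. Between BE2C and SHSY5Y the PDGFRA response differed by 0.67 ± 0.12 on the log2 scale (limma adjusted p = 0.00537). The same test passed for KIT (0.46 ± 0.09, adjusted p = 0.00957), which is not read for the same reason. The 2 calls compare with 0.841% of all genes in that direction, and 0 receptors were called in the other (0.152%). The PDGFRA difference kept its call without any single array, at adjusted p up to 0.0228. PDGFRA was itself dim in untreated BE2C, at a mean of 5.19 against 8.18 in SHSY5Y. It lay above the background median on 3 of 3 of those BE2C arrays, which is only a rough guide to detection. Whether a fall could have shown at that level was not tested. Between Kelly and SKNAS 0 of the 9 responses passed in either direction (0.942% and 2.95% of all genes did); for PDGFRA the difference was -0.26 ± 0.12 (adjusted p = 0.345). The call for PDGFRA in Kelly and not in SKNAS is thus not shown to be a difference between them. Averaged over the lines, PDGFRA was the 1 receptor called lower (13.0% of all genes were), at -0.18 ± 0.04 (adjusted p = 0.00287), and 0 were called higher (15.5% of all genes).

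**Figure D3:**
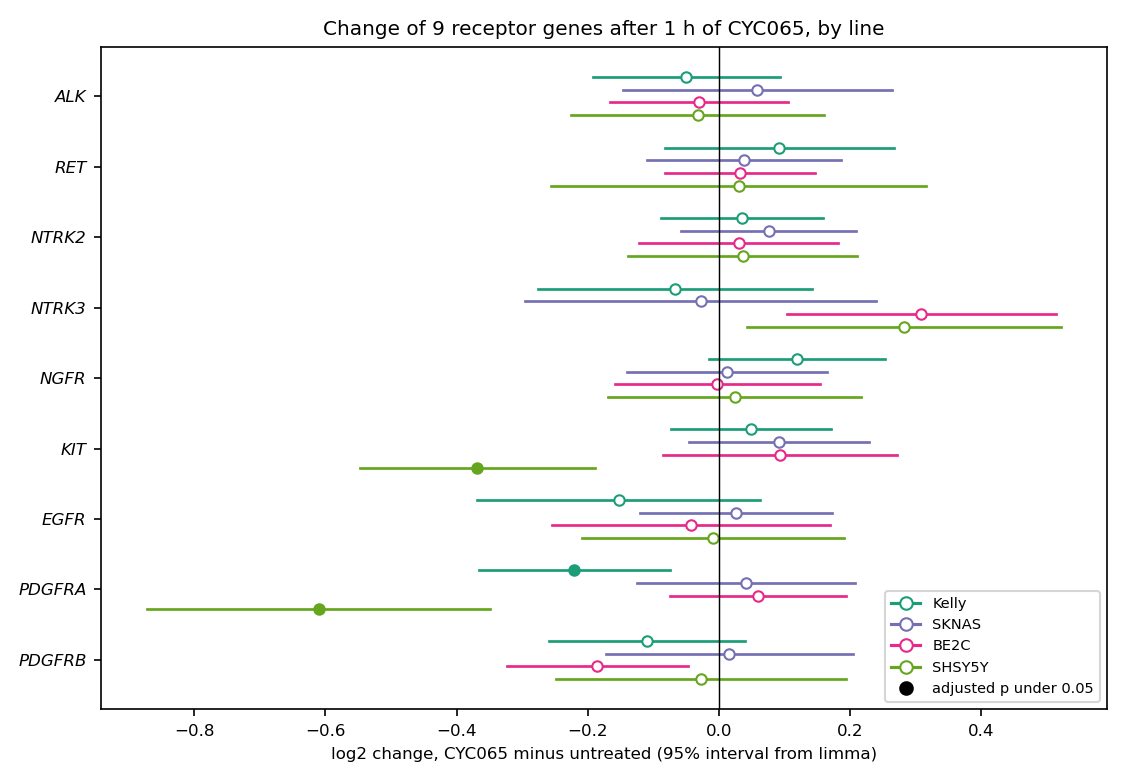
Log2 change of each receptor after CYC065 by line, with 95% intervals from limma; filled points passed an adjusted p of 0.05. PDGFRA in SHSY5Y (-0.61) and Kelly (-0.22) and KIT in SHSY5Y (-0.37) are the filled points, and the intervals of ALK and RET include 0 in every line.

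The other 7 receptors were not called in any line, and their changes lay between -0.19 and 0.31. ALK was at 7.54, 7.58 and 7.70 in treated Kelly and at 8.61, 8.62 and 8.49 in treated SHSY5Y, inside or next to the untreated values of each. Its changes over the 4 lines were -0.05 to 0.06, with interval bounds from -0.22 to 0.26. RET changed by 0.03 to 0.09, with bounds from -0.26 to 0.32, and EGFR by -0.15 to 0.03, with bounds from -0.37 to 0.19. The intervals leave room for changes of that size in either direction. In simulated data with the spread of each line, 90.0% to 100.0% of 1.5-fold changes were recovered in Kelly, SKNAS and SHSY5Y and 82.0% in BE2C. At 1.25-fold only 8.0% to 36.0% were. The simulation used independent noise and changed 50 of 32803 genes at each fold, fewer genes in all than were called in any line. Its rates are therefore only a rough guide to the real arrays.

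NTRK3 showed the largest uncalled values. In BE2C it was at 5.28, 5.56 and 5.34 before and 5.64, 5.67 and 5.79 after CYC065; in SHSY5Y it was at 6.61, 6.38 and 6.63 before and 6.97, 6.86 and 6.65 after. Treated and untreated arrays did not overlap in either line, yet the log2 changes of 0.31 ± 0.09 and 0.28 ± 0.11 did not pass (limma adjusted p = 0.129 and 0.268). With array weights the SHSY5Y change was 0.39 and passed (adjusted p = 0.0147). The average over the 4 lines was 0.12 ± 0.06 on the brighter row (adjusted p = 0.113) and 0.09 ± 0.02 on the dimmer row (adjusted p = 0.00782), so the call depended on the row. PDGFRB in BE2C was at 8.64, 8.75 and 8.70 before and 8.58, 8.44 and 8.50 after, without overlap, and its change of -0.19 ± 0.06 did not pass either (adjusted p = 0.172).

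The genes whose levels followed PDGFRA most closely over the 24 arrays, after the mean of each deposit was subtracted, were SH3D19 (Pearson r = 0.994), KIF13A (0.986) and TCP11L2 (0.985). The 24 points are replicate arrays of 4 lines, so these values mostly describe the order of the lines. SH3D19 was at 9.27 in untreated SHSY5Y and 7.58 in untreated BE2C. Its change in SHSY5Y, -0.23 ± 0.07, did not pass (limma adjusted p = 0.161). Neither did those of KIF13A (-0.03 ± 0.08, 0.964) and TCP11L2 (-0.10 ± 0.08, 0.764) in that line. In Kelly KIF13A was called lower (-0.25 ± 0.06, limma adjusted p = 0.0231).

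PDGFRA and KIT are next to each other on chromosome 4, with 0 protein-coding genes of RefSeq between them. The 2 protein-coding genes before PDGFRA and the 2 after KIT were looked up for their changes in SHSY5Y. CHIC2 changed by -0.31 ± 0.09 (limma adjusted p = 0.105), GSX2 by -0.06 ± 0.10 (0.933), KDR, a VEGF receptor, by 0.06 ± 0.08 (0.877) and SRD5A3 by 0.02 ± 0.08 (0.975). None of these 4 passed in SHSY5Y, while CHIC2 fell in Kelly (-0.25 ± 0.06, adjusted p = 0.0222).

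The signalling genes around the receptors were described from lists of their ligands, partners and pathway members. Among 24 measured ligands, 2 rose and 3 fell in Kelly (8.87% and 11.0% of all genes did), 1 rose and 1 fell in SKNAS (1.33% and 4.59%), and 0 passed in BE2C and SHSY5Y. The Kelly counts are near the shares of all genes. HBEGF, a ligand of EGFR, fell in Kelly (-0.54 ± 0.05, adjusted p = 0.000203) and in SKNAS (-0.59 ± 0.08, adjusted p = 0.00252). PDGFD, a ligand of PDGFRB, rose in SKNAS (0.34 ± 0.07, adjusted p = 0.0160). AREG, another EGFR ligand, rose in Kelly (0.22 ± 0.05, adjusted p = 0.0208), and GDF15 fell there (-0.25 ± 0.07, adjusted p = 0.0454). Of 16 co-receptors and sorting partners, 1 rose and 3 fell in Kelly (8.87% and 11.0% of all genes) and 0 passed in the other lines. In Kelly GFRA2, a co-receptor of RET, fell by 0.34 ± 0.07 (adjusted p = 0.0099), SLITRK5 by 0.55 ± 0.07 (0.00117) and NRP1 by 0.27 ± 0.05 (0.0120), whereas SORCS1 rose by 0.30 ± 0.06 (0.00882).

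Among 47 other receptor tyrosine kinases, 2 rose and 6 fell in Kelly (8.87% and 11.0% of all genes), 2 fell in BE2C (3.06%), and 0 passed in SKNAS and SHSY5Y. The counts of falls are near the shares of all genes. EPHB3, an ephrin receptor, fell by 0.94 ± 0.05 in Kelly (adjusted p = 2.78e-05) and by 0.46 ± 0.05 in BE2C (0.00599). LMTK2 fell by 0.64 ± 0.05 and 0.33 ± 0.05 in the same lines (adjusted p = 0.000121 and 0.0136). ROR1 and EPHA7 fell in Kelly, by 0.38 ± 0.07 (0.00771) and 0.77 ± 0.06 (0.000157).

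Of 31 adaptors and docking proteins, 9 fell and 1 rose in Kelly (11.0% and 8.87% of all genes did), 3 fell in SKNAS (4.59%), 1 in BE2C (3.06%) and 5 in SHSY5Y (3.98%). CRKL, an SH2 and SH3 adaptor and the 1 gene of this list called in all 4 lines, fell by 0.96 ± 0.05 in Kelly, 0.34 ± 0.06 in SKNAS, 0.31 ± 0.06 in BE2C and 0.63 ± 0.09 in SHSY5Y, with a highest adjusted p of 0.0387. IRS2, a docking protein of insulin and IGF receptors, fell by 1.20 ± 0.10, 0.80 ± 0.07 and 0.99 ± 0.09 in Kelly, SKNAS and SHSY5Y; its change in BE2C was -0.62 ± 0.14 (adjusted p = 0.0711). FRS2, the docking protein of FGF and neurotrophin receptors, fell in those same 3 lines, and NCK1 in Kelly and SHSY5Y.

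Of 20 measured PI3K and AKT genes, 6 fell and 1 rose in Kelly (11.0% and 8.87% of all genes), 2 fell and 1 rose in SKNAS (4.59% and 1.33%), 2 fell in BE2C (3.06%) and 3 in SHSY5Y (3.98%). PIK3R1, a regulatory subunit of PI3K, fell by 1.17 ± 0.05 in Kelly, 0.49 ± 0.07 in SKNAS, 0.63 ± 0.05 in BE2C and 0.72 ± 0.10 in SHSY5Y. PIK3R3, a further regulatory subunit, fell in the same order by 0.90 ± 0.05, 0.38 ± 0.08, 0.40 ± 0.05 and 0.43 ± 0.07. RICTOR, a subunit of mTORC2, fell in Kelly and SHSY5Y. Of 22 RAS and ERK genes, 3 fell and 1 rose in Kelly, near the 11.0% and 8.87% of all genes or below, and 0 passed in the other lines. RASA2, a RAS GTPase-activating protein, fell by 0.60 ± 0.05 and SHOC2 by 0.47 ± 0.05 in Kelly, and KSR2 rose by 0.41 ± 0.10.

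Of 20 measured genes of receptor turnover and inhibition, 9 fell in Kelly (11.0% of all genes did) and 6 in SKNAS (4.59%). In BE2C 2 fell (3.06%) and in SHSY5Y 4 fell (3.98%), and 0 rose in any line. The remaining members did not pass. Over all 20 genes, those called included, the median log2 change was -0.13 in Kelly, -0.09 in SKNAS, -0.01 in BE2C and -0.05 in SHSY5Y. LRIG2 fell by 1.17 ± 0.05 in Kelly, 0.67 ± 0.07 in SKNAS, 0.57 ± 0.06 in BE2C and 0.78 ± 0.10 in SHSY5Y. CBLB, a ubiquitin ligase that acts on activated receptors, fell by 0.68 ± 0.06, 0.32 ± 0.06, 0.31 ± 0.06 and 0.41 ± 0.07. ERRFI1, an inhibitor of EGFR, fell in Kelly (0.82 ± 0.08), SKNAS (0.72 ± 0.08) and SHSY5Y (0.74 ± 0.10), and its change in BE2C was -0.14 ± 0.07 (adjusted p = 0.368). SOCS5 fell in those same 3 lines.

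**Figure D4:**
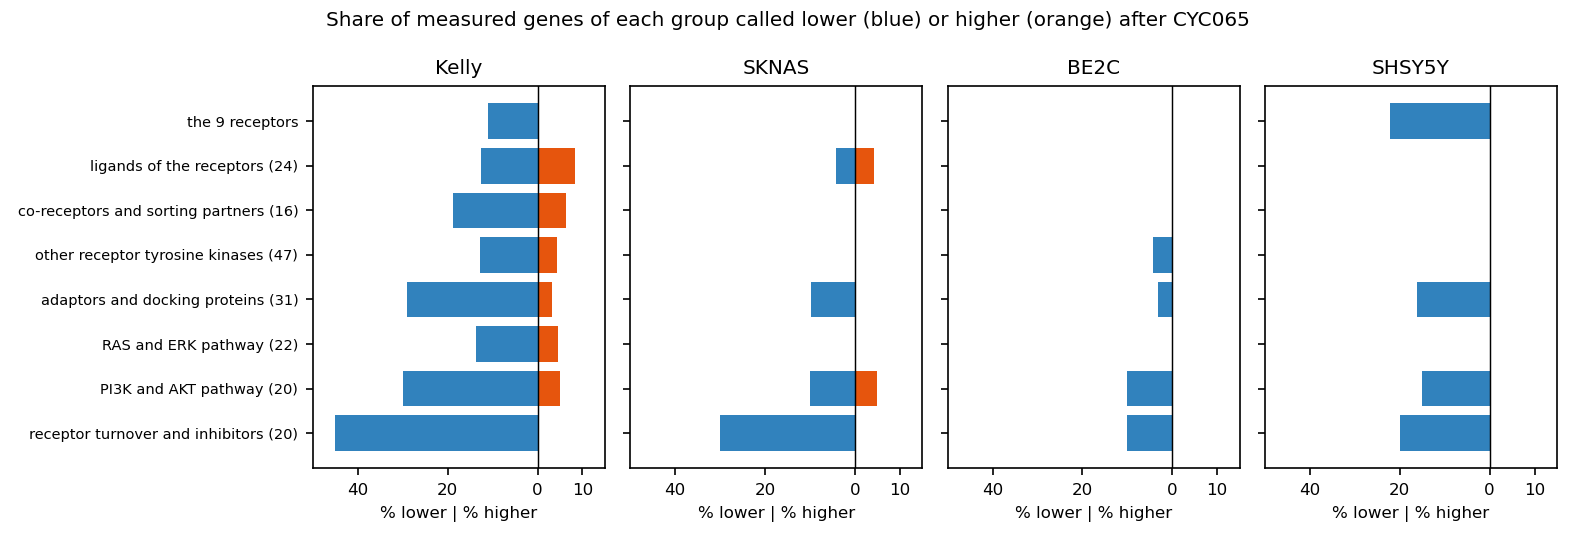
Share, in percent, of the measured genes of each group called lower (left, blue) or higher (right, orange) after CYC065 in each line; numbers in brackets are the genes measured. Of 20 receptor turnover genes, 9, 6, 2 and 4 are called lower in Kelly, SKNAS, BE2C and SHSY5Y, where 11.0%, 4.59%, 3.06% and 3.98% of all genes are; of the 9 receptors, 1 is in Kelly and 2 are in SHSY5Y. Differences between groups were not tested.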

How the data were processed

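RNA from 4 human neuroblastoma lines was hybridised to Affymetrix human transcriptome arrays, per the labels' protocols, from 100 ng of total RNA. The authors deposited log2 values per array row; the submitters' processing notes name RMA, affy and limma, with no version. RMA brings arrays onto one distribution, which may mask a shift shared by all transcripts. The authors' deposited table adds a log2 fold change, mean level, p-value and adjusted p-value per symbol for BE2C and SHSY5Y. The labels of the array rows carry no gene symbol, so symbols were joined by value: a symbol took the row, or the mean of 2 rows, whose changes and levels in both lines equal its values within 1e-07. Of 33720 symbols, 26584 matched 1 row and 6219 a mean of 2 rows (32803 tested), 272 were ambiguous, 632 had no match and 13 had become dates. Of the 24126 with a RefSeq chromosome, 99.73% lay on the row's chromosome. With SHSY5Y values moved between symbols, 0 matched 1 row. For means of 2 rows this control searched 1000 symbols only, and 0 matched. The pair search accepted any row.

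Each line was fitted with limma 3.58.1 (R 4.3.3), 3 treated against 3 untreated arrays, with moderated variances and Benjamini-Hochberg adjustment over the 32803 genes; calls are adjusted p under 0.05 with no minimum fold. A fit of 8 group means to 24 arrays gave the average and the differences between lines, and one of 4 group means to the 12 untreated arrays gave levels. Errors of changes are moderated standard errors. The fits were tested on simulated data. Alternatives were other normalisations, row choices, a dim gene filter, array weights, a replicate block, a shared spread and single arrays left out; use of the dimmer row was chosen after seeing the data. The members and lists were chosen with earlier results of these data known. Named were all receptors, up to 4 genes of each list (called in the most lines, then by mean change), and the 3 genes most correlated with a receptor called in at least 2 lines. The genes beside PDGFRA and KIT were chosen by position, after the values of PDGFRA and KIT were seen. Some genes that this rule names are not reported here. The mouse arrays were not used. Figures used matplotlib 3.10.9.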

Additional observations from a re-analysis of the deposited data

Results flagged for a closer look

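The PDGFRA response to CYC065 differed between the 4 lines by the limma F test (adjusted p = 0.00263). BE2C minus SHSY5Y gave 0.67 ± 0.12 on the log2 scale (adjusted p = 0.00537), with PDGFRA lower on 3 of 3 treated SHSY5Y arrays than on any untreated one. KIT passed the same tests (adjusted p = 0.00343 over the 4 lines; BE2C minus SHSY5Y 0.46 ± 0.09, adjusted p = 0.00957). Its values lay below the background median in Kelly, SKNAS and BE2C, where a fall could not show, so no difference in response is drawn from them. With dim genes left out KIT was not tested and PDGFRA kept its call. PDGFRA was dim in BE2C too, at an untreated mean of 5.19, and whether a fall could have shown there was not tested.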

How the results depend on the processing

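Of 2023 values of single receptors recomputed under an alternative, 1976 kept direction and side of the threshold, or stayed uncalled, 33 lost and 12 gained a call, and 2 reversed. Those 2 were RET between untreated BE2C and SHSY5Y, at 0.33 (adjusted p = 0.0020) with the mean of 2 rows and 0.69 with the dimmer row. The cause was not tested. The 1976 values include those of results that were never called. The 3 calls of a CYC065 change within a line were less stable. PDGFRA in Kelly lost its call in 7 of 14 alternatives, KIT in SHSY5Y in 7 of 14 and PDGFRA in SHSY5Y in 5 of 14.

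Receptors called lower in Kelly went from 1 to 0 with all rows tested and with the shared spread, and ran from 0 to 1 without single arrays. In SHSY5Y the 2 called lower became 1 after quantile normalisation or with all rows tested and 0 after median centring, and ran from 0 to 2 without single arrays; 1 was called higher with array weights. On average 2 were called lower after quantile normalisation (KIT added), median centring (PDGFRB) or with the dimmer rows (EGFR). There 1 was called higher with the mean of 2 rows or the dimmer rows, 2 with array weights, and 0 to 1 without single arrays. With dim genes left out, the differences between the 4 lines and between BE2C and SHSY5Y fell from 2 receptors to 1, since KIT was removed. Receptors higher in untreated Kelly fell from 2 to 1 after median centring, with dim genes left out or all rows tested, and ran from 1 to 2 without single arrays. Over all alternatives that count ran from 1 to 3. Receptors higher in untreated BE2C fell from 2 to 1 after quantile normalisation or with 6 arrays alone, and ran from 1 to 2 without single arrays. Over all alternatives they ran from 1 to 3, and those lower in BE2C from 3 to 5.

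Same-numbered arrays of different lines did not deviate together (r of -0.25 to 0.13 over 36 pairs, 5 over 0.1). These low values gave no sign that the numbers pair arrays across lines, but cannot exclude it. Pairing of untreated with treated arrays within a line was not tested. The replicate block left 1 receptor higher in Kelly than SKNAS, with KIT at 0.20 (adjusted p = 0.0561), and changed no other call. Levels near background limit KIT and NTRK2.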
